A study of Mus musculus with 12 samples.

Results

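The 57 genes described here encode proteins that take a cell from G2 into mitosis and through division: mitotic cyclins and kinases, kinetochore, checkpoint, condensin, spindle and cytokinesis proteins. They were chosen by symbol, and all 57 were present among the 55291 gene symbols counted and among the 19010 genes that passed the filter on low counts. RNA was sequenced in bulk from activated CD8+ T cells of mouse lymph node and spleen, in 4 groups of 3 libraries: Dock8 KO cells in collagen gel (KO gel), Dock8 KO cells in media (KO media), WT cells in gel (WT gel) and WT cells in media (WT media). Every group had been activated and grown in vitro for 3 days, and spent a further 24 h in media or in bovine collagen at 2 mg/mL before RNA extraction. DOCK8 is an exchange factor for the GTPase Cdc42 and acts on actin in moving lymphocytes. The labels give 3 mice per group. They do not state the Dock8 allele, the age of the mice or whether gel and media libraries of a genotype came from the same mice. The p-values therefore measure the spread between these libraries.

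Mitosis genes are transcribed in a wave that starts late in S phase and peaks in G2 and M phase, so that a culture with many dividing cells holds more of these transcripts than a resting one. In quiescent and G1 cells the DREAM complex represses them through the cell cycle homology region (CHR), a short promoter element, and in cycling cells the MuvB complex with B-MYB and then FOXM1 activates them at the same place. CD8+ T cells divide fast after activation and keep this programme on for days. In bulk RNA, fewer cells in G2 or M phase and less of these transcripts per cell cannot be told apart.

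The libraries held between 28483064 and 61390702 counts. Levels are given in CPM, counts per 1000000 of a library's total after scaling by TMM factors, and log2 fold changes come from edgeR's quasi-likelihood F test with Benjamini-Hochberg adjustment over all 19010 genes, called at an adjusted p under 0.05. Dock8 itself averaged 162 ± 5.04 CPM in KO gel and 120 ± 9.83 CPM in KO media, against 413 ± 35.6 CPM in WT gel and 408 ± 41.1 CPM in WT media (SD, n = 3 each), so transcript remained in the libraries labelled KO. The KO gel libraries stood apart in the number of genes detected at equal depth (28362 to 30104, against 24336 to 25142 in the other 9), and libraries WT gel 2 and KO media 3 had the most counts on ribosomal RNA genes (11.9% and 8.11%). The 9 CD8 T cell markers summed to 3464 to 3575 CPM in KO gel, 3528 to 3953 CPM in KO media, 3864 to 4147 CPM in WT gel and 3761 to 4132 CPM in WT media. Of the 9, 2 were called lower and 0 higher in KO gel against KO media, and likewise against WT gel. Among all tested genes 9.74% and 7.71% were called lower. In each comparison 8 of the 9 estimates were negative. With scaling by total counts 0 of the 9 were called in either.

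Dock8 KO cells in gel had less RNA of most mitosis genes than Dock8 KO cells in media. Of the 57 genes, 44 fell in KO gel against KO media and 0 rose, where 9.74% of all tested genes fell and 11.1% rose. Of the 9959 more abundant genes (mean log2 CPM 3 or above), which include all 57 members, 16.8% fell. The libraries of the 2 groups did not overlap for 50 of the 57 genes, all lower in KO gel, against 23.9% of all genes lower and 23.5% higher without overlap. Of the more abundant genes 37.2% were lower and 15.7% higher without overlap. The median log2 fold change of the 57 genes was -0.29, a change of -18.4%. It was -0.01 for all tested genes and -0.08 for the more abundant genes. Single members ran from -0.50 for Aurkb to 0.11 for Smc4. Together the 57 genes took 1.14, 1.13 and 1.22% of the counts in KO gel and 1.36, 1.32 and 1.31% in KO media. In WT cells they took 1.29, 1.23 and 1.51% in gel and 1.31, 1.45 and 1.51% in media. The KO gel shares lay below all others, and the closest library, WT gel 2, was one of those rich in ribosomal RNA.

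**Figure D1:**
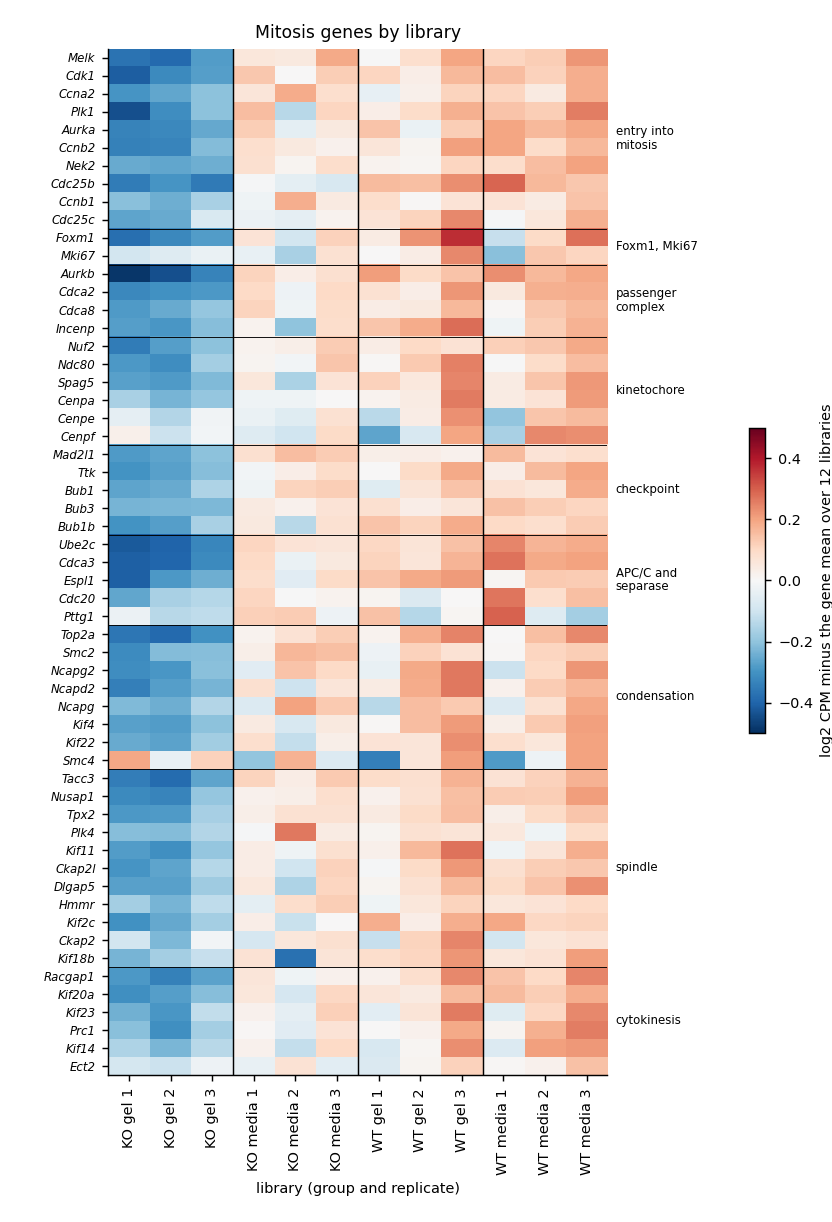
Level of each of the 57 mitosis genes (rows, ordered by role) in each of the 12 libraries (columns), as log2 CPM minus that gene's mean over the 12 libraries; blue is lower and red is higher. The KO gel columns are blue in nearly every row, with Smc4 and Cenpf among the exceptions.

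All 3 KO gel libraries lay below all 9 others for 49 of the 57 genes (86.0%), and for 11.3% of all tested genes. The mean of the 57 genes, each centred on its own mean log2 CPM, was -0.26, -0.27 and -0.19 in KO gel and 0.03, -0.01 and 0.07 in KO media. In WT cells this mean was 0.03, 0.07 and 0.18 in gel and 0.06, 0.11 and 0.17 in media. Over the 12 libraries the correlation of single genes with this mean had a median r of 0.94. The lowest values were -0.08 for Smc4, 0.19 for Pttg1 and 0.40 for Cenpf; the libraries share their depth and scaling, and the mean includes the gene itself. Per kilobase of exon (all annotated exons of a gene merged), Mki67 (188 CPM per kb), Top2a (178 CPM per kb) and Smc4 (167 CPM per kb) had the highest mean levels over the 12 libraries, and Cdc25c (7.07 CPM per kb) and Pttg1 (9.54 CPM per kb) the lowest.

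Promoters of the genes were read from RefSeq on build GRCm38.p6, from 250 bases before to 50 after the start, and 47 of the 57 genes were matched. The CHR letters TTTGAA or TTCGAA, on either strand, stood in 37 of the 47 (78.7%) and in 21.7% of all 27025 genes with a promoter. The CCAAT box letters CCAAT, on either strand, stood in 37 of the 47 (78.7%) against 41.1% of all genes, with at least 2 copies in 51.1% against 13.3%. Both kinds of letters stood together in 72.3% of the matched genes and in 8.61% of all genes, and a CHR match and a CCAAT match can share at most 1 base. The E2F letters TTCCCGC or TTCGCGC, on either strand, were found in 10.6% of the matched genes and 6.86% of all. Among the 10863 tested genes with a promoter the shares were 17.2% for CHR letters, 43.0% for CCAAT, 7.32% for both and 12.5% for the E2F letters, the last above the share of the matched mitosis genes. In KO gel against KO media 29 of the 37 genes with CHR letters fell, and 8 of the 10 without them. A match is a run of letters and not a measured binding site.

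The 5 stretches printed here run from 150 bases before to 30 after the start. Cdk1 and Ube2c are shown as genes that fell with CHR letters near the start, Ccnb1 as one that fell and has no CHR letters in the window, and Mki67 and Cenpf as holders of the letters that were not called. They lie at chr10:69352883-69353062 (Cdk1, minus strand), chr2:164769779-164769958 (Ube2c, plus strand), chr13:100786457-100786636 (Ccnb1, minus strand), chr7:135716350-135716529 (Mki67, minus strand) and chr1:189688057-189688236 (Cenpf, minus strand). Capitals mark the CHR, CCAAT and E2F letters in either orientation, and each is written 5′ to 3′ in the direction of its gene.
Cdk1: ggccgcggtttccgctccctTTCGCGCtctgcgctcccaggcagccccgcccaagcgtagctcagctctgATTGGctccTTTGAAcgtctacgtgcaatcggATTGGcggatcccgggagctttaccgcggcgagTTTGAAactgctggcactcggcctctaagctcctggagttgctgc
Ube2c: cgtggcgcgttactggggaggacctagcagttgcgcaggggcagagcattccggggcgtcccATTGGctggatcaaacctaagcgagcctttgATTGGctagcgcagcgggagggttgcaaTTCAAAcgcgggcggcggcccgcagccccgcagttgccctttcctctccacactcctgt
Ccnb1: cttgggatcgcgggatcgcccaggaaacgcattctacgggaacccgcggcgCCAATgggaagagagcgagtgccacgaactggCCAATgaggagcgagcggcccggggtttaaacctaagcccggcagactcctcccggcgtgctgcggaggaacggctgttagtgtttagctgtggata
Mki67: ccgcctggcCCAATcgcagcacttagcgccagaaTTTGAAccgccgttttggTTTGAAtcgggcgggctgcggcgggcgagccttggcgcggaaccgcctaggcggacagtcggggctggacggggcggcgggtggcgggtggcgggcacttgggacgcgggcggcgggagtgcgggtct
Cenpf: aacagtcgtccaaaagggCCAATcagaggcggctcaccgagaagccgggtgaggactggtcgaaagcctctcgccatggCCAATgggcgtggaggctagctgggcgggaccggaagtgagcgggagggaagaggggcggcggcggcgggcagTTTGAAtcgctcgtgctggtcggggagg

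The first CHR letter stood 71 and 15 bases before the start in Cdk1, 29 before it in Ube2c, 116 and 98 before it in Mki67, and 3 after it in Cenpf.

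Among the 10 genes of mitotic entry, 9 fell in KO gel against KO media. Cdk1, the kinase that drives cells into mitosis, had 96.0, 102 and 105 CPM in KO gel and 140.0, 128 and 139 CPM in KO media. WT gel libraries had 137, 131 and 143 CPM of it, and WT media libraries 142, 138 and 145 CPM. The 3 KO gel libraries lay below the other 9, which overlapped among themselves. Cdk1 thus fell by 0.42 ± 0.063 (log2, SE) in KO gel against KO media, with an edgeR adjusted p = 0.00057. Ccnb1, cyclin B1 and the main partner of Cdk1 in mitosis, had 73.9, 72 and 76.4 CPM in KO gel, against 84.0, 96.8 and 88.1 CPM in KO media. Again no library of the 2 groups overlapped, and the log2 fold change was -0.27 ± 0.064 (SE, edgeR adjusted p = 0.0087, or 0.078 under total counts). Plk1, a kinase of centrosome maturation and spindle assembly, had 85.2, 93.2 and 100.2 CPM in KO gel, against 129, 105 and 125 CPM in KO media. The highest KO gel library came close to the lowest KO media library without reaching it, and Plk1 fell by 0.36 ± 0.084 (log2, SE; edgeR adjusted p = 0.0087, or 0.053 without the libraries WT gel 2 and KO media 3).

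The other members of the entry group followed the same order with smaller or like differences. Melk, a kinase abundant in dividing cells, averaged 34.7 ± 1.38 CPM in KO gel and 47.2 ± 2.57 CPM in KO media (SD, n = 3 libraries), a log2 fold change of -0.44 ± 0.069 (SE, edgeR adjusted p = 0.00072). Ccna2 (cyclin A2), Ccnb2 (cyclin B2), Aurka (a centrosome kinase), Nek2 (a kinase of centrosome separation) and Cdc25b (a phosphatase that activates Cdk1) fell by 0.29 to 0.36 on the log2 scale. Cdc25c, a second such phosphatase and the least abundant member per kilobase of exon, had 28.8, 29.1 and 32.8 CPM in KO gel, against 33.9, 33.5 and 35.0 CPM in KO media. Those groups did not overlap, yet its log2 fold change of -0.18 ± 0.074 was not called (edgeR adjusted p = 0.10).

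Foxm1 and Mki67 parted. Foxm1, the transcription factor that activates late cell cycle genes, had 104, 108 and 111 CPM in KO gel and 141, 127 and 146 CPM in KO media. In WT gel it had 139, 158 and 174 CPM, and in WT media 124, 144 and 163 CPM. It fell by 0.36 ± 0.10 (log2, SE) in KO gel against KO media (edgeR adjusted p = 0.022), a call that was lost in 7 alternatives, among them total counts (adjusted p = 0.058) and leaving out KO gel 1 (0.072), KO gel 2 (0.058), KO media 1 (0.065) or KO media 3 (0.060). Mki67, which coats mitotic chromosomes and is the usual marker of cycling cells, had 1765, 1799 and 1838 CPM in KO gel, against 1832, 1682 and 1983 CPM in KO media. These groups overlapped, and the log2 fold change was -0.03 ± 0.10 (SE, edgeR adjusted p = 0.88), or 0.01 under total counts.

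**Figure D2:**
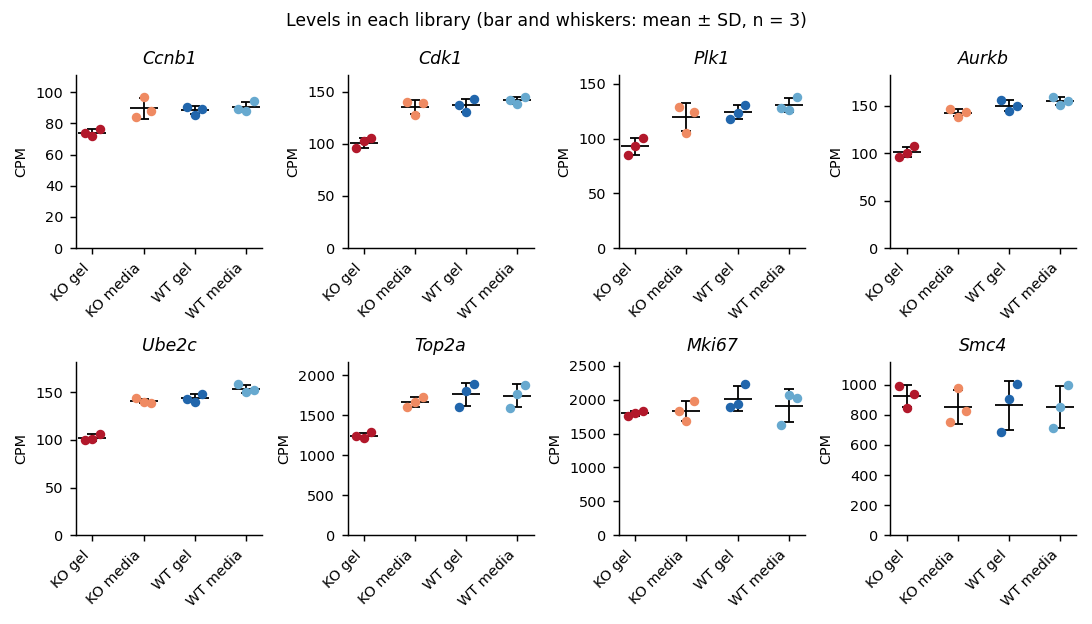
CPM of 8 mitosis genes in each library, with KO gel, KO media, WT gel and WT media from left to right; points are libraries, and bars with whiskers are the mean ± SD of 3. Ccnb1, Cdk1, Plk1, Aurkb, Ube2c and Top2a sit lower in all KO gel libraries than in any other, while Smc4 overlaps between groups. Mki67 in KO gel overlaps with both media groups and lies below WT gel.

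The chromosomal passenger complex, which corrects wrong attachments of chromosomes to the spindle, held the gene with the largest fall. Aurkb, its kinase, had 96.5, 99.8 and 107 CPM in KO gel and 146, 139 and 143 CPM in KO media. WT gel libraries had 156, 145 and 149 CPM, and WT media libraries 159, 151 and 155 CPM. No KO gel library came near the others, and the log2 fold change in KO gel against KO media was -0.50 ± 0.061 (SE, edgeR adjusted p = 0.00016). Cdca8, the borealin subunit, fell by 0.30, and Cdca2, a chromatin-bound partner of phosphatase 1, fell by 0.36 on the log2 scale. Incenp, the scaffold of the complex, had 181, 179 and 190 CPM in KO gel, against 223, 191 and 234 CPM in KO media, and was not called (log2 fold change -0.24, edgeR adjusted p = 0.053).

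At the kinetochore, 3 of 6 genes fell in KO gel against KO media. Nuf2 and Ndc80, which together form the arm that grips microtubules, fell by 0.33 and 0.30, and Spag5 (astrin), which steadies attached kinetochores, fell by 0.25 on the log2 scale. Cenpa, the centromeric histone, averaged 187 ± 4.60 CPM in KO gel and 212 ± 1.88 CPM in KO media (SD, n = 3 libraries), a log2 difference of -0.18 that was not called (edgeR adjusted p = 0.089). The large kinetochore proteins Cenpe, a motor, and Cenpf had log2 fold changes of -0.06 and -0.01. Cenpf had 246, 224 and 239 CPM in KO gel, against 231, 225 and 258 CPM in KO media, and the groups overlapped.

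All 5 genes of the spindle checkpoint, which holds anaphase until every chromosome is attached, fell in KO gel against KO media. Mad2l1, the checkpoint protein that binds Cdc20, had 118, 119 and 124 CPM in KO gel, against 151, 159 and 156 CPM in KO media. The gap between the groups was wider than the range within either, and the log2 fold change was -0.37 ± 0.056 (SE, edgeR adjusted p = 0.00057). Ttk (the MPS1 kinase), Bub1, Bub3 and Bub1b (BUBR1) fell by 0.24 to 0.30 on the log2 scale.

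In the group around the anaphase promoting complex, which marks proteins for destruction so that sister chromatids part, 4 of 5 genes fell. Ube2c, its ubiquitin-conjugating enzyme, had 99.8, 101 and 106 CPM in KO gel and 144, 140.1 and 139 CPM in KO media. WT libraries had 143, 140 and 148 CPM in gel and 158, 150.1 and 152 CPM in media. It fell by 0.46 ± 0.057 (log2, SE) in KO gel against KO media (edgeR adjusted p = 0.00015), and KO gel was again apart from every other library. Cdca3, a target of the complex, fell by 0.41, and Espl1, the separase that cuts cohesin, by 0.35 on the log2 scale. Cdc20, which activates the complex, fell by 0.23 (edgeR adjusted p = 0.025). Pttg1, the securin that holds separase inactive, had 18.6, 17.2 and 17.4 CPM in KO gel, against 20.6, 20.8 and 18.6 CPM in KO media. Those ranges barely parted, at a log2 fold change of -0.17 ± 0.11 (SE, edgeR adjusted p = 0.27).

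Among the 8 genes of chromosome condensation 7 fell. Top2a, the topoisomerase that untangles sister chromatids, had 1235, 1211 and 1287 CPM in KO gel and 1604, 1666 and 1726 CPM in KO media. WT libraries had 1606, 1800 and 1884 CPM in gel and 1588, 1759 and 1874 CPM in media. The highest KO gel library lay well under the lowest of the other 9, and the log2 fold change was -0.42 ± 0.083 (SE, edgeR adjusted p = 0.0034). Condensin is a ring of Smc2 and Smc4 with non-SMC subunits, and its parts differed here: Smc2, Ncapd2, Ncapg and Ncapg2 fell by 0.30 to 0.36 on the log2 scale, whereas Smc4 had 988, 844 and 936 CPM in KO gel, against 755, 977 and 826 CPM in KO media. Smc4 overlapped between all groups, with a log2 fold change of 0.11 ± 0.15 (SE, edgeR adjusted p = 0.59). The chromokinesins Kif4 and Kif22 fell by 0.26 and 0.23.

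Of the 11 spindle genes 9 fell. Tacc3, which stabilises spindle fibres, averaged 102 ± 4.40 CPM in KO gel and 137 ± 4.74 CPM in KO media (SD, n = 3 libraries), a log2 fold change of -0.42 ± 0.061 (SE, edgeR adjusted p = 0.00039). Nusap1 and Dlgap5, which bundle microtubules, Tpx2, which activates Aurka, Kif11, the motor that pushes the poles apart, Plk4, the kinase of centriole duplication, Ckap2l and Hmmr, spindle-binding proteins, and Kif2c, which shortens microtubules, fell by 0.22 to 0.33 on the log2 scale. Ckap2, related to Ckap2l, had a log2 fold change of -0.13 and was not called (edgeR adjusted p = 0.32). Kif18b, a motor acting at microtubule ends, had 79.2, 82.8 and 85.9 CPM in KO gel, against 97.8, 71.9 and 97.3 CPM in KO media. Library KO media 2 alone lay below the KO gel libraries there, and the log2 fold change was -0.11 (edgeR adjusted p = 0.45).

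In cytokinesis, the last step, 3 of 6 genes fell. Racgap1, which forms centralspindlin with Kif23, fell by 0.32, the motor Kif20a by 0.29 and the midzone bundler Prc1 by 0.23 on the log2 scale. Kif23 (log2 fold change -0.25, edgeR adjusted p = 0.067), the motor Kif14 (-0.18, adjusted p = 0.19) and Ect2, the exchange factor that sets the cleavage ring (-0.07, adjusted p = 0.48), were not called.

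**Figure D3:**
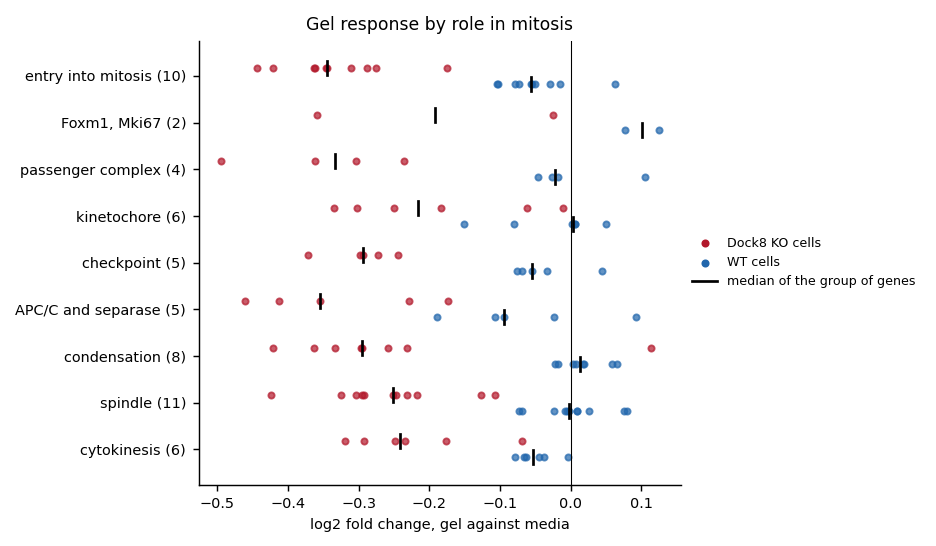
Log2 fold change of each gene in gel against media, by role, with Dock8 KO cells (red) above WT cells (blue) in each row; black ticks are the median of the genes of a role. The KO points lie left of the WT points in most roles, and the 2 points of Foxm1 and Mki67 are far apart in KO cells.

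Of the 57 genes, 5 have a longest transcript of at least 7000 bases (Mad2l1, Cenpe, Kif14, Mki67 and Cenpf), and 1 of them, Mad2l1, fell in KO gel against KO media, against 43 of the other 52. Their median log2 fold change was -0.06, and that of the others -0.30. Espl1, the next longest at 6658 bases, fell. Over the 57 genes Spearman's rho between transcript length and this fold change was 0.14, and over the 9763 more abundant genes of known length it was 0.40, so longer transcripts tended to sit higher in KO gel. For KO gel against WT gel these rho values were 0.13 and 0.26. The part of length in the calls was not tested. Some members share exons with a gene on the opposite strand, such as Kif20a with Cdc23 (29.3% of its exon bases) and Ube2c with Tnnc2 (22.8%). Whether the counting used strand is not given in the sources used here, so reads of such pairs cannot be told apart.

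The count of 44 depended on the scaling and on single libraries, although the median stayed negative in all alternatives tried. It was 19 under total counts (4.57% of all genes then fell), 25 without the libraries WT gel 2 and KO media 3 (4.7%), 29 without KO gel 1 (4.88%) and 29 without KO gel 2 (6.43%).

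Compared with WT cells in the same gel, Dock8 KO cells had less RNA of 47 of the 57 genes and more of 0, where 7.71% of all tested genes were lower and 7.12% higher. Of the more abundant genes 13.3% were lower and 4.03% higher. The KO gel libraries are the same as in the comparison with KO media, so the results are not separate evidence. The median log2 fold change was -0.35, a change of -21.2%, with a range from -0.57 for Aurkb to 0.10 for Smc4. For the more abundant genes the median was -0.07. The libraries did not overlap for 51 of the 57 genes, all lower in KO gel, against 19.9% of all genes lower and 18.3% higher without overlap. Of the more abundant genes 31.6% were lower and 12.1% higher without overlap. In this comparison all 10 entry genes, all 5 checkpoint genes, all 4 genes of the passenger group and 10 of 11 spindle genes fell. Aurkb averaged 101 ± 5.51 CPM in KO gel and 150.1 ± 5.79 CPM in WT gel (SD, n = 3 libraries), with an edgeR adjusted p = 8.2e-05. Cdc25b had 244, 253 and 243 CPM in KO gel, against 347, 345 and 365 CPM in WT gel. That gap was many times the range within either group, and the log2 fold change was -0.51 ± 0.063 (SE, edgeR adjusted p = 0.00021).

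Further genes fell strongly in KO gel against WT gel. Foxm1 had a log2 fold change of -0.54 ± 0.10 (SE, edgeR adjusted p = 0.0029), Top2a of -0.50 ± 0.083 (adjusted p = 0.0014) and Espl1 of -0.49 ± 0.068 (adjusted p = 0.00041). Cdca3 and Ube2c both fell by 0.49, Tacc3 by 0.45, Cdk1 by 0.44, Plk1 by 0.42 and Ccnb1 by 0.26 on the log2 scale. Espl1 had 121, 131 and 135 CPM in KO gel, against 177, 183 and 186 CPM in WT gel, with no overlap. The 10 genes not called were Mki67, Cenpe, Cenpf, Pttg1, Smc4, Ckap2, Ect2, Kif14, Cdc20 and Ncapg. Mki67 averaged 1800 ± 36.4 CPM in KO gel and 2013 ± 183 CPM in WT gel (SD, n = 3 libraries), and its log2 difference of -0.16 ± 0.10 was not called (edgeR adjusted p = 0.31). All KO gel libraries lay below all WT gel libraries for it.

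Scaling by total counts left 16 calls (2.14% of all genes were then lower), not including Plk1 (edgeR adjusted p = 0.051) or Ccnb1 (adjusted p = 0.28, and 0.058 or 0.064 without KO gel 1 or KO gel 2). It moved the median of all tested genes to 0.10 on the log2 scale. Another scaling shifts all genes of a comparison by nearly the same amount, so the 57 genes keep nearly the same place relative to that median by construction (-0.34, and -0.35 with TMM factors). Over the 57 genes GC content and this fold change had a Spearman's rho of -0.57, and over the 9763 more abundant genes of -0.37, given as a description of genes in the same libraries. For KO gel against KO media these rho values were -0.18 and -0.15.

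WT cells showed no called mitosis gene between gel and media. By edgeR 0 of the 57 genes fell and 0 rose in WT gel against WT media (1 at an unadjusted p under 0.05), as with DESeq2 and limma-voom, and 0.00526% of all tested genes fell and 0.0316% rose. The median log2 fold change of the 57 genes was -0.02, with a range from -0.19 for Cdc20 to 0.13 for Foxm1. Cdc20 had 133, 125 and 132 CPM in WT gel, against 158, 140 and 146 CPM in WT media. The groups did not overlap, but at a log2 fold change of -0.19 ± 0.065 the gene was not called (edgeR adjusted p = 0.81). Aurkb averaged 150.1 ± 5.79 CPM in WT gel and 155 ± 3.91 CPM in WT media, Cdk1 137 ± 6.08 CPM in WT gel and 142 ± 3.29 CPM in WT media, and Top2a 1764 ± 143 CPM in WT gel and 1740 ± 144 CPM in WT media (SD, n = 3 libraries each). Each of these differences was smaller than the larger SD of its pair of groups. All libraries of WT gel lay below those of WT media for 7 genes and above them for 1, shares of 12.3% and 1.75%, against 4.53% and 4.65% of all tested genes.

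In media the genotypes also differed little. By edgeR 0 of the 57 genes fell and 0 rose in KO media against WT media (5 at an unadjusted p under 0.05), where 0.163% of all tested genes fell and 0.0263% rose. Limma-voom called 0, and DESeq2 called 1, Cdc25b, with 0.347% of all genes. Cdc25b had 309, 300.0 and 294 CPM in KO media, against 380, 348 and 341 CPM in WT media, which did not overlap, with a log2 fold change of -0.24 ± 0.063 (SE, edgeR adjusted p = 0.29). Of the 57 estimates 50 were negative, with a median of -0.09 and a range to 0.06 for Plk4. The KO media libraries lay wholly below the WT media libraries for 14 genes (24.6%), and above them for 0, against 5.83% and 4.88% of all tested genes. Mki67 averaged 1832 ± 151 CPM in KO media and 1907 ± 243 CPM in WT media, and Ccnb1 89.7 ± 6.55 CPM in KO media and 90.5 ± 3.25 CPM in WT media (SD, n = 3 libraries each), both within the spread between libraries.

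**Figure D4:**
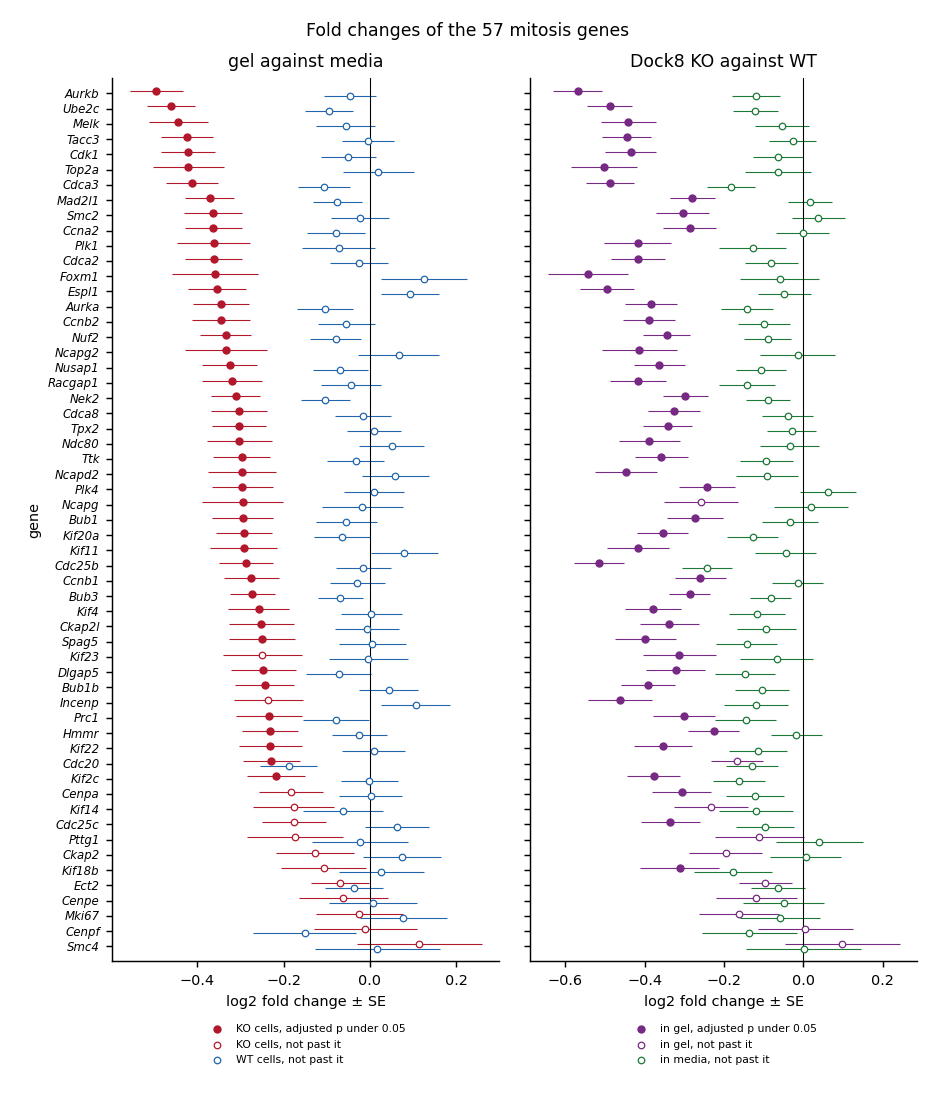
Log2 fold change ± SE of the 57 mitosis genes, in gel against media (left, KO cells above WT cells) and in Dock8 KO against WT (right, in gel above in media); filled points passed an edgeR adjusted p of 0.05. The filled points number 44 for KO cells in gel against media and 47 for KO against WT in gel, and 0 for WT cells or in media.

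The gel response itself was compared between genotypes by the interaction of genotype and culture. It was called for 6 of the 57 genes, all more negative in KO cells, where 1.45% of all tested genes were called in that direction and 1.89% in the other. Of the more abundant genes 2.66% were called in that direction and 1.03% in the other. At an unadjusted p under 0.05 there were 42 of the 57. The median of the 57 genes was -0.26, and that of the more abundant genes -0.07. Aurkb had a log2 fold change in gel against media of -0.50 in KO cells and -0.05 in WT cells, a difference of -0.45 ± 0.086 (SE, edgeR adjusted p = 0.016). For Espl1 the response was -0.35 in KO cells and 0.09 in WT cells, a difference of -0.45 ± 0.096 (adjusted p = 0.025). Tacc3 responded by -0.42 in KO cells and -0.005 in WT cells, a difference of -0.42 ± 0.085 (adjusted p = 0.021).

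The 3 other called genes were Ube2c (difference -0.37, adjusted p = 0.026), Cdk1 (-0.37, adjusted p = 0.037) and Melk (-0.39, adjusted p = 0.045). Foxm1 had the largest estimate, -0.48 ± 0.14, and was not called (edgeR adjusted p = 0.080), nor were Top2a (-0.44, adjusted p = 0.056), Plk1 (-0.29, adjusted p = 0.20) and Mki67 (-0.10, adjusted p = 0.73). The number of interaction calls, with the share of all genes called in that direction, was 0 under total counts (0.126%), 0 without both WT gel 2 and KO media 3 (0.0103%), 21 with DESeq2 (2.98%), 15 with every gene kept (1.99%) and 7 with limma-voom (1.33%). Leaving out 1 library gave 0 without WT media 2 (0.344%), 11 without WT media 1 (4.91%), 1 without KO gel 2 (0.596%) and 2 without KO gel 1 (0.449%), KO media 1 (0.61%) or WT gel 2 (0.471%).

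Genes of the same programme outside the 57 were counted from separate lists. Of 110 other mitosis genes tested, 49 fell and 1 rose in KO gel against KO media, 57 fell and 0 rose in KO gel against WT gel, and 10 were called more negative in the interaction. Among all tested genes 9.74%, 7.71% and 1.45% were called lower in these comparisons. Under total counts the numbers of other mitosis genes called lower were 23 in KO gel against KO media, 16 in KO gel against WT gel and 0 in the interaction. The shares of all tested genes called lower were then 4.57%, 2.14% and 0.126%. Birc5 (survivin), the remaining subunit of the passenger complex, averaged 128 CPM in KO gel, 176 CPM in KO media, 179.5 CPM in WT gel and 193 CPM in WT media, with a log2 fold change of -0.46 in KO gel against KO media (edgeR adjusted p = 0.00017). Spc24, a further subunit of the Ndc80 complex, fell by 0.49, and Cdca5 (sororin), which protects cohesin, by 0.53 on the log2 scale. None of the 110 was called in WT gel against WT media or in KO media against WT media.

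Of 25 regulators of cell cycle transcription and inhibitors of cyclin-dependent kinases, 11 fell and 1 rose in KO gel against KO media, and 13 fell and 1 rose in KO gel against WT gel, where 9.74% and 7.71% of all tested genes fell. Under total counts 9 fell in KO gel against KO media and 4 in KO gel against WT gel, where 4.57% and 2.14% of all tested genes fell. Those that fell in KO gel against KO media include Mybl2 (B-MYB, -0.46), the repressor E2f8 (-0.66) and Rbbp4, a MuvB subunit (-0.38, all log2). The other MuvB subunits listed were mixed. Levels of Lin52 and Lin54 overlapped between KO gel and KO media, while those of Lin9 and Lin37 were lower in every KO gel library. The gene that rose was Cdkn1a, the p21 inhibitor, with 62.5, 67.4 and 76.7 CPM in KO gel and 31.9, 21.7 and 34.4 CPM in KO media. In WT cells it had 35.5, 40.0 and 29.2 CPM in gel and 27.2, 28.8 and 22.2 CPM in media. The KO gel libraries lay above all others, and the log2 fold changes were 1.23 ± 0.16 against KO media (SE, edgeR adjusted p = 0.0003) and 0.99 ± 0.16 against WT gel (adjusted p = 0.0017).

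All 41 S phase genes tested fell in KO gel against KO media, with a median log2 fold change of -0.48, and 40 fell in KO gel against WT gel. Among all tested genes 9.74% and 7.71% were called lower in these comparisons. In the interaction 33 were called more negative, where 1.45% of all tested genes were. Under total counts 40 fell in KO gel against KO media, 31 in KO gel against WT gel, and 4 were called in the interaction. Of all tested genes 4.57%, 2.14% and 0.126% were then called lower. The median of -0.48 above is from TMM scaling. That median lies below the -0.29 of the mitosis genes, and the difference between the lists was not tested. The 10 genes outside the 57 whose log2 CPM followed the mean of the mitosis genes most closely over the 12 libraries were Chtf18 (r = 0.99), Fbxo5, Rrm2, Tyms, Ncaph, E2f8, Arhgap19, Brip1, Rad51ap1 and Ska3 (r = 0.97). These correlations are a description over libraries that share their scaling.

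Markers of other cells differed in level and in their calls. Among all tested genes 11.1% were called higher in KO gel against KO media and 7.12% in KO gel against WT gel. Of 5 neutrophil markers only Mpo was tested, and it was called higher in KO gel against both KO media and WT gel. The 5 summed to 1.16 to 1.35 CPM in KO gel, 0.14 to 0.33 CPM in KO media, 0.040 to 0.13 CPM in WT gel and 0 to 0.056 CPM in WT media, and S100a9 was at 0 in every library. Of 5 erythroid and platelet markers 3 were tested, of which 2 rose in KO gel against KO media and 3 in KO gel against WT gel. Their sum was 10 to 19.5 CPM in KO gel, 4.11 to 5.87 CPM in KO media, 3.30 to 4.54 CPM in WT gel and 2.88 to 4.18 CPM in WT media.

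All 5 markers of CD4 and regulatory T cells were tested, and they summed to 613 to 652 CPM in KO gel, 548 to 579 CPM in KO media, 652 to 704 CPM in WT gel and 529 to 596 CPM in WT media. Il2ra and Ctla4, which activated CD8+ T cells also express, made up most of this sum. Cd4 itself averaged 5.29 CPM in KO gel, 3.04 CPM in KO media, 2.39 CPM in WT gel and 2.85 CPM in WT media, and was called higher in KO gel against both KO media and WT gel. Ctla4 was called higher in KO gel against KO media (log2 fold change 0.44, edgeR adjusted p = 0.0019) and not in KO gel against WT gel (-0.18, adjusted p = 0.14). The 5 NK cell markers summed to 363 to 408 CPM in KO gel, 339 to 419 CPM in KO media, 330.5 to 369 CPM in WT gel and 348 to 395 CPM in WT media, nearly all of it Klrd1 and Eomes, and the 5 stromal markers to 119 to 132 CPM in KO gel, 110 to 129 CPM in KO media, 124 to 142 CPM in WT gel and 129 to 147 CPM in WT media, nearly all of it Pecam1. The 5 markers of macrophages and dendritic cells summed to 36.3 to 48.2 CPM in KO gel, 40.6 to 48.5 CPM in KO media, 20.4 to 36.5 CPM in WT gel and 20.3 to 37.0 CPM in WT media, and those of B cells to 11.4 to 11.8 CPM in KO gel, 11.8 to 15.4 CPM in KO media, 12.4 to 14.8 CPM in WT gel and 12.6 to 15.2 CPM in WT media. No tested marker of the NK, stromal, macrophage and dendritic or B cell lists was called by edgeR in either comparison of KO gel (4, 3, 2 and 2 tested), and the smallest adjusted p was 0.064, for Cd79b in KO gel against WT gel. The mitochondrial share of counts was 2.27 to 2.61% in KO gel and 1.34 to 2.32% in the other libraries. The part of these in the lower mitosis transcripts was not tested.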

How the data were processed

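The authors deposited 1 table of raw counts per gene symbol for the 12 libraries, made with HISAT2 and featureCounts on GRCm38 (mm10), with FastQC, MultiQC, Picard and SAMtools also listed, per the submitters' processing notes. No version, annotation or strand setting is given there. Per the labels' protocols, ribosomal RNA was depleted from total RNA. The 57 members and all gene lists were chosen with earlier results of these data known.

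Genes were kept by filterByExpr, scaled by TMM factors and tested with edgeR 4.0.16 (R 4.3.3, limma 3.58.1) in 1 fit of the 4 groups, with 5 contrasts and calls at a Benjamini-Hochberg adjusted p under 0.05. DESeq2 1.42.0 and limma-voom were alternatives. The pipeline was tested on simulated data. Positions came from GENCODE M21. Summed over genes, libraries of a group differed by more than counting alone would give (chi-square per degree of freedom between replicates of 13.3 to 167). The most abundant genes weigh most in that sum, and it was not computed for the mitosis genes alone. Full statistics went to Ccnb1, Cdk1, Plk1, Aurkb, Mki67, Foxm1 and Top2a, and per contrast to the 6 smallest p and the 3 largest rises and falls; the other genes were named for their role.

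Labels give replicate numbers without saying what they mark. Deviations of same-numbered libraries correlated at 0.78, 0.24 and 0.79 between WT gel and WT media and at 0.21, 0.16 and 0.38 between KO media and WT media. Whether the numbers mark pairs is not settled by this, and the main fit did not pair libraries. A replicate block was an alternative, by genotype and number for gel against media and the interaction, and by number alone for KO against WT. In WT gel against WT media and in KO media against WT media the block called 0 mitosis genes, as did the main fit. Of all genes it called 75 lower and 96 higher in WT gel against WT media, where the main fit called 1 and 6. In KO media against WT media it called 43 lower and 14 higher, where the main fit called 31 and 5.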

Additional observations from a re-analysis of the deposited data

Results flagged for a closer look

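The response to gel differed between Dock8 KO and WT cells in the interaction test for 6 mitosis genes. The log2 fold change in KO cells minus that in WT cells was -0.45 for Aurkb, -0.45 for Espl1, -0.42 for Tacc3, -0.39 for Melk, -0.37 for Cdk1 and -0.37 for Ube2c. KO gel was lower than KO media for each of these genes, by 0.50 for Aurkb, which encodes the Aurora B kinase, to 0.35 for Espl1, which encodes separase. Leaving out 1 library at a time moved the edgeR adjusted p between 0.0064 and 0.053 for Aurkb, 0.013 and 0.060 for Tacc3, 0.016 and 0.060 for Espl1, 0.010 and 0.077 for Ube2c, 0.022 and 0.10 for Cdk1, and 0.034 and 0.12 for Melk. Groups of 3 libraries were not searched for a library far from the others.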

How the results depend on the processing

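Of the counts of mitosis genes lower in KO gel against KO media (44), scaling by total counts left 19, testing the more abundant genes alone left 29, leaving out the libraries rich in ribosomal RNA left 25, and leaving out 1 library at a time gave 29 to 47. With the more abundant genes alone, 949 of 9959 fell. With 1 library left out, 944 to 2633 of the 19289 to 19532 genes tested fell. In KO gel against WT gel (47), total counts left 16 and single libraries gave 39 to 49. With 1 library left out, 776 to 2005 of all genes were lower there. For all genes, total counts moved the split from 1851 lower and 2111 higher to 869 and 2007 in KO gel against KO media, and from 1465 and 1354 to 407 and 1875 in KO gel against WT gel. In the interaction (6), total counts left 0, dropping the libraries rich in ribosomal RNA 0, DESeq2 gave 21, keeping every gene 15, and single libraries 0 to 11. DESeq2 called 1 gene in KO media against WT media. Total counts also moved the median of all genes in the interaction to 0.12, with the mitosis genes at -0.26 relative to it, a value that a change of scaling leaves nearly fixed by construction. Without ribosomal RNA genes in the total, the mitosis genes took 1.24% of the counts in KO gel and 1.41% in KO media. The cause of these shifts was not tested.

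With the replicate block the interaction called 42 mitosis genes, where 1879 of all 19010 tested genes were called in that direction. KO gel then had 49 mitosis genes lower than KO media (4054 of all genes) and 48 lower than WT gel (1917 of all genes). The same-numbered libraries of these pairs correlated at -0.04, 0.17 and 0.18 and at -0.42, 0.14 and 0.14, so the numbers are not shown to pair them. Signs turned for uncalled genes. In KO gel against KO media, Cenpf was at 0.0288 under total counts, 0.0620 among the more abundant genes and 0.0485 without the libraries rich in ribosomal RNA (-0.0557 to 0.0308 over single libraries), and Mki67 at 0.0143, 0.0475 and 0.0340 (-0.0877 to 0.0166). In KO gel against WT gel, Cenpf was at -0.0235 with every gene and -0.0161 without those libraries (-0.101 to 0.132), Ect2 at 0.00946 under total counts, and Smc4 at -0.048 to 0.214 over single libraries. Of the log2 fold changes of single genes recomputed, 276 of 294 in KO gel against KO media and 301 of 315 in KO gel against WT gel kept direction and call, against 138 of 200 in the interaction. With 3 libraries a group, a gene that was not called is not shown to be equal.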
